A study of Mus musculus with 2 samples.

Results

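Rbfox1, Rbfox2, Rbfox3, Nova1, Nova2, Ptbp1, Ptbp2, Elavl2, Elavl3 and Elavl4 encode RNA-binding proteins that set the splicing, stability and translation of neuronal transcripts, and their loci were examined in DNase-seq maps of the neonatal cerebellum. These 10 genes were taken by name out of 21670 protein-coding genes of the autosomes and chromosome X. In DNase-seq the enzyme DNase I cuts accessible DNA, densely cut sites are called as peaks, and footprints are short stretches of bases inside them that were shielded from the enzyme. The samples were cerebella of male B6CASTF1/J mice aged 4 days, first-generation hybrids of a C57BL/6J and a CAST parent, with no treatment and no engineered allele named, and the label of each library names 3 males. Both libraries, biological replicates 1 and 2 by their labels, belong to 1 group, so no conditions could be compared and no p-value is given. Every value is reported for replicate 1 and then for replicate 2, and differences are log2 of replicate 1 minus log2 of replicate 2.

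Splicing regulators of these families act by binding short RNA sequences in or beside an exon, and the position decides whether the exon is included or skipped. Rbfox proteins bind GCAUG elements, Nova proteins bind clusters of a CA-containing tetramer, PTB proteins bind pyrimidine-rich tracts and mostly repress exons, and the Elavl (Hu) proteins bind U-rich and AU-rich stretches and stabilise messages. During neurogenesis Ptbp1, the form of progenitors and most other cells, gives way to Ptbp2, the neuronal form, and Elavl and Nova proteins are present from early neuronal stages. Rbfox3 is the antigen of the neuronal nuclear marker NeuN, which stains granule cells and is known to be absent from Purkinje cells.

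Replicate 1 had 61896 peaks and replicate 2 had 131518 on the less strict of the deposited lists, which was used throughout unless stated, and coordinates are on mm10, counted from 1. The peak value is taken from the signal column of these lists, which the authors scaled in each library by a factor not stated, and without read totals the sequencing depth is unknown. Over the 12774 genes with a coding-start peak in both libraries the median value was 2.14 in replicate 1 and 4.46 in replicate 2, a median log2 difference of -1.02, and 92.6% of these genes had the higher value in replicate 2. Of 8 cerebellar and granule cell marker genes 5 were open at a coding start in both libraries, Pax6 and En1 in replicate 2 alone and Barhl1 in neither. Of 3 oligodendrocyte lineage markers 2 were open in both libraries, Pdgfra at 1.69 and 2.78 and Olig2 at 1.08 and 1.75. Of 4 astrocyte and Bergmann glia markers 1, Slc1a3, was open in both and 3 in replicate 2 alone. Of 3 endothelial markers 2 were open in replicate 2 alone and 1 in neither. None of the 4 microglial and neither of the 2 choroid plexus markers had a start peak in either library. The forebrain markers Six3, Emx1 and Tbr1 had none in replicate 1 and a peak in replicate 2, of 0.698, 1.41 and 1.66. The tissue was taken whole, so fewer cells of a type and less accessibility per cell cannot be told apart.

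Both libraries shared open sites with protected bases at these loci, and the sequences of 9 of them are shown because they are among the strongest sites of their gene and are referred to again with their values. They are read 5′ to 3′ on the strand of the gene from the RefSeq sequence of GRCm38 (mm10), that is the C57BL/6J reference and not the alleles of the hybrid animals, and they avoid annotated exons. Capitals mark bases inside footprints of both libraries. Other stretches of these loci were read and are not shown, among them a strong Rbfox3 site 404 kb in. The Rbfox1 site lies in an intron at chr16:6018761-6018940 (plus strand). Upstream of Rbfox2 the sites lie at chr15:77336481-77336740 and chr15:77343501-77343720 (minus strand), and the Rbfox3 site lies in an intron at chr11:118738981-118739160 (minus strand). The Nova1 and Nova2 sites lie just upstream of the gene at chr12:46819481-46819660 (minus strand) and chr7:18925261-18925480 (plus strand). The Ptbp1 site lies downstream of the gene at chr10:79892841-79893040 (plus strand). At Elavl2 and Elavl4 the stretches shown are the parts of start peaks outside annotated exons, at chr4:91376528-91376660 and chr4:110351940-110352060 (minus strand).
Rbfox1 intron site: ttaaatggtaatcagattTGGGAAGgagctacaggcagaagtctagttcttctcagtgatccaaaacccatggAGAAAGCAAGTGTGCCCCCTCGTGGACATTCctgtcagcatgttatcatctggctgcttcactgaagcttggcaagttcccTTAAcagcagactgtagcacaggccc
Rbfox2 nearer upstream site: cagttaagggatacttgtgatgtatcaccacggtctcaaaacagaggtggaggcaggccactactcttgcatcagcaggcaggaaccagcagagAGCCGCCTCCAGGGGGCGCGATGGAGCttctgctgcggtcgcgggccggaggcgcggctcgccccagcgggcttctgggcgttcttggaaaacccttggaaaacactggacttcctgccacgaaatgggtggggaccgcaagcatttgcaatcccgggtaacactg
Rbfox2 farther upstream site: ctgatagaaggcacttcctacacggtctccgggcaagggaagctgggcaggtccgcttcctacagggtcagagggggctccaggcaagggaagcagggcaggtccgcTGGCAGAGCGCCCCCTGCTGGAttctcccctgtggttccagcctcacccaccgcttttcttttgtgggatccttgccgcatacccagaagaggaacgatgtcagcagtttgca
Rbfox3 intron site: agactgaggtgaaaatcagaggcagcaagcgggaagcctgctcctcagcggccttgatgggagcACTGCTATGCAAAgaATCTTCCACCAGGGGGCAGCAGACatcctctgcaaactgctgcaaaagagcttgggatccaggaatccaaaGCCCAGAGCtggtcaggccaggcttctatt
Nova1 upstream site: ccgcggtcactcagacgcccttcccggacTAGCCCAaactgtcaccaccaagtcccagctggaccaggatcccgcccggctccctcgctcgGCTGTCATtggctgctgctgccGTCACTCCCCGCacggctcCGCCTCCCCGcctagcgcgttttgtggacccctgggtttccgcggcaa
Nova2 upstream site: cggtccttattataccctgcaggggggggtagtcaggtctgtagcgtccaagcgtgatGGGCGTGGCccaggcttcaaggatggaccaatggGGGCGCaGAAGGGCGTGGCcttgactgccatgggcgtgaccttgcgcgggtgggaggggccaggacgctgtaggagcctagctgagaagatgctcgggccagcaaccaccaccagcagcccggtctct
Ptbp1 downstream site: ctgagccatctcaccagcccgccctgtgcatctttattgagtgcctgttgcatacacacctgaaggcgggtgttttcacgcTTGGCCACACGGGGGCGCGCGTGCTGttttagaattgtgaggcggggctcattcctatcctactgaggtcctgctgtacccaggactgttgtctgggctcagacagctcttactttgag
Elavl2 start site: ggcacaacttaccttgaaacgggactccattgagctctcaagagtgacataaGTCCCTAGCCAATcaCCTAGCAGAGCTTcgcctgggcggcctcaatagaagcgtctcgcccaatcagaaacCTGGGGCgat
Elavl4 start site: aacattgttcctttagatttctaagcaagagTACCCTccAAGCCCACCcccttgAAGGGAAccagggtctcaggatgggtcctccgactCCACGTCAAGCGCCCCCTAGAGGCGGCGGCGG

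All 10 genes had a peak within 500 bp of an annotated coding start in replicate 1, in replicate 2 and in both, against 59.9%, 65% and 58.9% of all protein-coding genes. With the stricter of the deposited lists the count was again 10 of 10, against 52.3% of all genes. These shares allow neither for CpG content nor for the number of starts. The CpG-richest start of each gene held 41 to 77 CpG dinucleotides in 500 bp. In the classes of all start groups from 34 CpGs upward, 88.8% to 93.5% were open in both libraries. The 10 genes have 60 coding starts, against 54081 for the 21670 genes. Start values spanned 0.897 to 4.82 in replicate 1 and 1.84 to 21.5 in replicate 2. Ptbp1 was highest in both libraries with this 500 bp window. All 10 genes were higher in replicate 2. The log2 differences ran from -2.21 to -0.26 with a median of -1.22, beside -1.02 over all genes open in both. With a window of 1000 bp, tried after the values were seen, Nova1 was highest in replicate 1, at 5.46.

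Most single coding starts had a peak in both libraries. Once neighbouring starts were merged into groups, most groups downstream of the 5′-most one did not. The 10 genes have 60 annotated coding starts, of which 39 had a peak in both libraries, 9 in replicate 2 alone, none in replicate 1 alone and 12 in neither. Of all 54081 coding starts 53.1% had a peak in both libraries, 3661 in replicate 2 alone and 487 in replicate 1 alone. Starts within 500 bp of their neighbour share a window, and chaining them gave 38 start groups, of which 17 had a peak in both libraries (44.7%), against 42.4% of all start groups. A peak in replicate 2 alone was called at 9 groups, against 7% of all start groups, and in replicate 1 alone at none, against 1.06%. The 5′-most group was open in both libraries in 9 of 10 genes, all but Rbfox3, against 54.7% of the 5′-most groups of all genes with several groups (Nova2 has 1 group only). Later groups were open in both in 8 of 28 cases (28.6%), against 20.1% of all later groups, with another 8 in replicate 2 alone and 12 in neither. Groups that carry a complete coding sequence were open in both libraries in 14 of 24 cases, and those known only from incomplete transcripts in 3 of 14, against 48.7% and 13.0% of all such groups. In the groups seen in replicate 2 alone replicate 1 had an interval under the authors' false discovery rate of 0.05 at 2 of 9. Whether the forebrain marker peaks of replicate 2 and these starts have a common source was not tested.

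**Figure D1:**
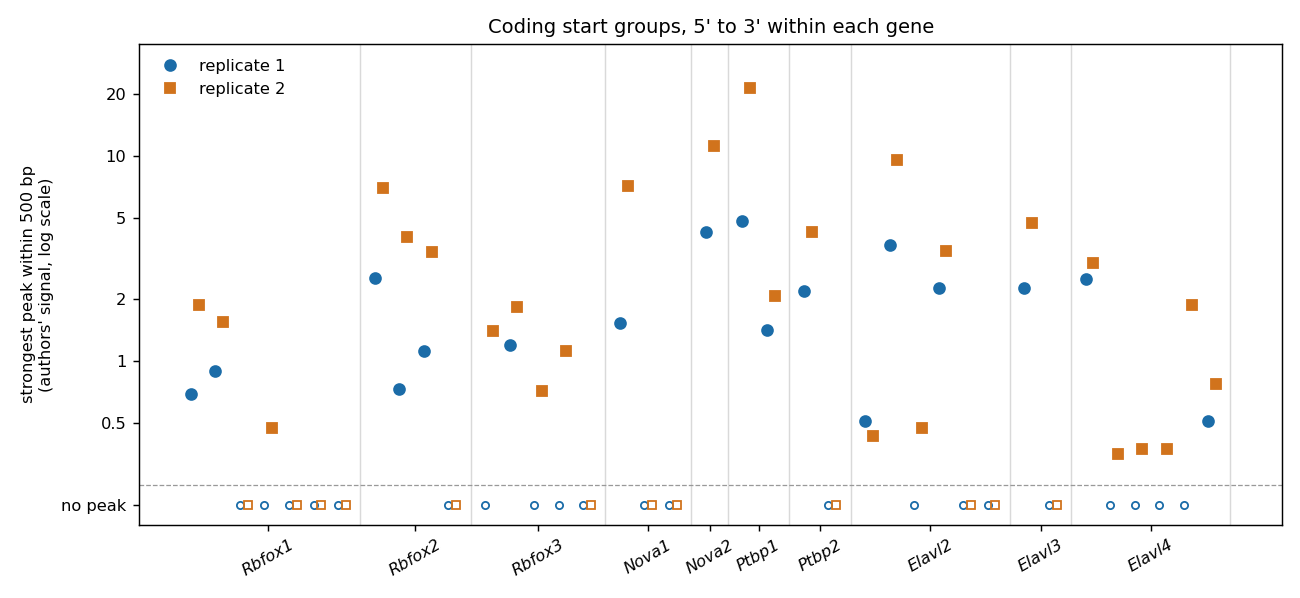
Strongest peak value (authors' signal, log scale) within 500 bp of each of the 38 coding start groups, ordered 5′ to 3′ within each gene, with filled circles for replicate 1, filled squares for replicate 2 and open symbols at the bottom for no peak. At 1 group, the 5′-most of Elavl2, the replicate 1 circle sits above the replicate 2 square, and Rbfox3 and Elavl4 hold most of the groups with a filled square alone.

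The CpG content around a start, which the choice of genes did not use, went with its accessibility. Within a 500 bp window the 17 groups open in both libraries held a median of 43 CpG dinucleotides (7 to 77), the 9 open in replicate 2 alone a median of 11 (2 to 56) and the 12 without a peak a median of 7 (1 to 18). The ranges overlapped, and the groups open in both libraries included a CpG-poor start of Rbfox2 with 7 CpGs. Start groups of all genes were put in 10 equal classes of CpG count. Of the 13 groups of these genes in the upper 4 classes, only the Rbfox3 group 342 kb in, with 56 CpGs, lacked a peak in replicate 1. Among all genes the share of groups open in both libraries ran from 0.792% in the lowest of these classes to 93.5% in the highest. Across the 38 groups Spearman's rho of CpG count with peak value was 0.75 in replicate 1 and 0.69 in replicate 2, as a description only, since groups of a gene share their locus and all share the 2 libraries.

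**Figure D2:**
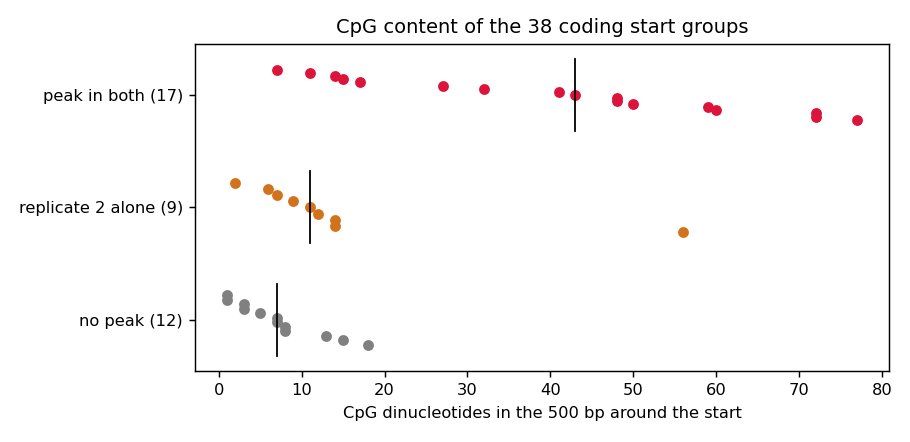
CpG dinucleotides in the 500 bp around each of the 38 coding start groups, in rows by whether a peak was called in both libraries, in replicate 2 alone or in neither, with a black line at each median. The medians are 43, 11 and 7, and a single group of the middle row, at 56, lies among the CpG-rich starts.

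The Rbfox genes, regulators of exon inclusion in neurons and muscle, ranged from mid to low start values. Rbfox2 (ENSMUSG00000033565, chromosome 15, 77078990 to 77307004, minus strand), the most widely expressed of them, had a start value of 2.54 in replicate 1 and 6.98 in replicate 2 (mean 4.76 ± 3.15, SD, n = 2), higher than 59.7% and 71.3% of genes open in both. Its 5′-most group held 77 CpGs, the most of any group here, and its strongest peaks spanned 77306861 to 77307220 and 77306881 to 77307220. Further groups 61.4 kb and 153 kb into the gene were open in both libraries, with 0.729 and 4.01 and with 1.12 and 3.41. The group 61.4 kb in differed most between the libraries of all 17 groups open in both, by a log2 difference of -2.46, and had no peak in the stricter list of replicate 1. A last group, 221 kb in, had no peak.

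Rbfox1 (ENSMUSG00000008658, chromosome 16, 5885355 to 7411526, plus strand), the longest of the 10 genes at 1526172 bp and a regulator of genes for excitability and synapses, had start values of 0.897 in replicate 1 and 1.88 in replicate 2 (mean 1.39 ± 0.697, SD, n = 2). These belong to different start groups, the strongest of replicate 1 lying 464 kb into the gene and the strongest of replicate 2 at the 5′ end. The 5′-most group itself had 0.690 and 1.88 from peaks that do not overlap, although each library had a weaker peak under the other's, and the group 464 kb in had 0.897 and 1.55. Of 5 later groups, that at 1184 kb had a peak of 0.472 in replicate 2 alone and the others had none. The values were higher than only 13.8% and 21.1% of genes open in both.

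Rbfox3 (ENSMUSG00000025576, chromosome 11, 118489762 to 118911597, minus strand) had the only 5′-most group without a peak in replicate 1, where replicate 2 had 1.40. Its second group, 2.03 kb in and with 59 CpGs, was open in both libraries at 1.20 and 1.84 (mean 1.52 ± 0.455, SD, n = 2), higher than 23.8% and 20.6% of genes open in both. The groups 151 kb and 342 kb in had peaks in replicate 2 alone, of 0.718 and 1.12. With a window of 1000 bp, tried after the values were seen, an intronic peak near the last group, 404 kb in, gave 2.50 and 2.06, which reverses the order of the libraries.

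The Nova genes, regulators of synaptic exons, had strong open sites just upstream of the 5′-most start. Nova2 (ENSMUSG00000030411, chromosome 7, 18925888 to 18965319, plus strand) has a single start group, with values of 4.23 in replicate 1 and 11.1 in replicate 2 (mean 7.68 ± 4.87, SD, n = 2), higher than 89.1% and 91.5% of genes open in both. The replicate 1 peak, 18925281 to 18925480, was centred at -508 bp relative to the start, and the Nova2 sequence above covers it.

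Nova1 (ENSMUSG00000021047, chromosome 12, 46694517 to 46818929, minus strand) had 1.54 in replicate 1 and 7.10 in replicate 2 (mean 4.32 ± 3.94, SD, n = 2), but the values come from different peaks. The replicate 2 peak, 46819421 to 46819640, has a partner of 5.46 in replicate 1 at 46819441 to 46819660, which begins just beyond the 500 bp window. With a window of 1000 bp, tried after the values were seen, Nova1 had 5.46 and 7.10 and its log2 difference was -0.38 in place of -2.21. The peak at the start itself was 1.54 in replicate 1 and 2.90 in replicate 2. Both later groups, 1.97 kb and 98.1 kb in, had no peak in either library, and apart from the shared peaks around the start, 3 in each library, the locus held 1 peak in replicate 1 and 5 in replicate 2.

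Of the PTB genes, Ptbp1, the repressor of neuronal exons that declines as neurons form, had the highest start value of all 10 within 500 bp. Ptbp1 (ENSMUSG00000006498, chromosome 10, 79854427 to 79864771, plus strand) had 4.82 in replicate 1 and 21.5 in replicate 2 (mean 13.1 ± 11.8, SD, n = 2), higher than 93.9% and 99.9% of genes open in both, and a log2 difference of -2.15. Its second group, 4.35 kb in, had 1.42 and 2.08. A further shared peak of 4.08 and 5.50 lay 0.857 kb upstream, at 79853481 to 79853660.

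Ptbp2 (ENSMUSG00000028134, chromosome 3, 119718742 to 119784466, minus strand), the neuronal PTB protein, had 2.20 in replicate 1 and 4.24 in replicate 2 (mean 3.22 ± 1.45, SD, n = 2), higher than 51.4% and 47.7% of genes open in both. The Ptbp1 value was higher than the Ptbp2 value in both libraries. The start 44.0 kb into Ptbp2 had no peak, and the whole locus held 3 peaks in replicate 1, each with a partner, and 6 in replicate 2.

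The Elavl genes, which encode the neuronal Hu proteins HuB, HuC and HuD, differed in which start was open. Elavl2 (ENSMUSG00000008489, chromosome 4, 91250763 to 91400785, minus strand) was weak at its 5′-most group, with 0.510 in replicate 1 and 0.432 in replicate 2, the only group with the higher value in replicate 1. Its second group, 24.3 kb in, had 3.67 and 9.52 (mean 6.59 ± 4.14, SD, n = 2), higher than 81.8% and 85.6% of genes open in both, and a group 28.7 kb in had 2.27 and 3.44. Between them a group with 0.472 in replicate 2 alone was seen, and both groups farther in had none.

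Elavl3 (ENSMUSG00000003410, chromosome 9, 22015005 to 22052023, minus strand), an early marker of postmitotic neurons, had 2.26 in replicate 1 and 4.70 in replicate 2 (mean 3.48 ± 1.72, SD, n = 2), near the middle of genes open in both at 53.1% and 52.4%. Both libraries placed the peak at 22051961 to 22052160, with identical ends, and the start 25.6 kb in had no peak.

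Elavl4 (ENSMUSG00000028546, chromosome 4, 110203722 to 110351909, minus strand) had 2.50 in replicate 1 and 3.00 in replicate 2 at its 5′-most group (mean 2.75 ± 0.352, SD, n = 2), the smallest gap between the libraries of the 10 genes. Its other 5 groups form a stretch 59.2 to 65.0 kb into the gene. In this stretch the first 4 groups had peaks in replicate 2 alone, of 0.353, 0.373, 0.373 and 1.88, and the last had 0.510 in replicate 1 and 0.772 in replicate 2 from peaks that do not overlap. The peak of 1.88, at 110287481 to 110287660, held 4 footprints in replicate 2, and replicate 1 had no interval under the false discovery rate of 0.05 there.

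Gene bodies and 50 kb on either side of the 10 genes held 119 peaks in replicate 1 and 273 in replicate 2. Of these 98 in replicate 1 (82.4%) and 99 in replicate 2 (36.3%) overlapped a peak of the other library, against 71.2% and 33.4% of all peaks. Among the 21 unshared peaks of replicate 1, replicate 2 had an interval under the false discovery rate of 0.05 inside 6, against 14.9% of all such peaks. Among the 174 unshared peaks of replicate 2, replicate 1 had one inside 10, against 4.15% of all such peaks.

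**Figure D3:**
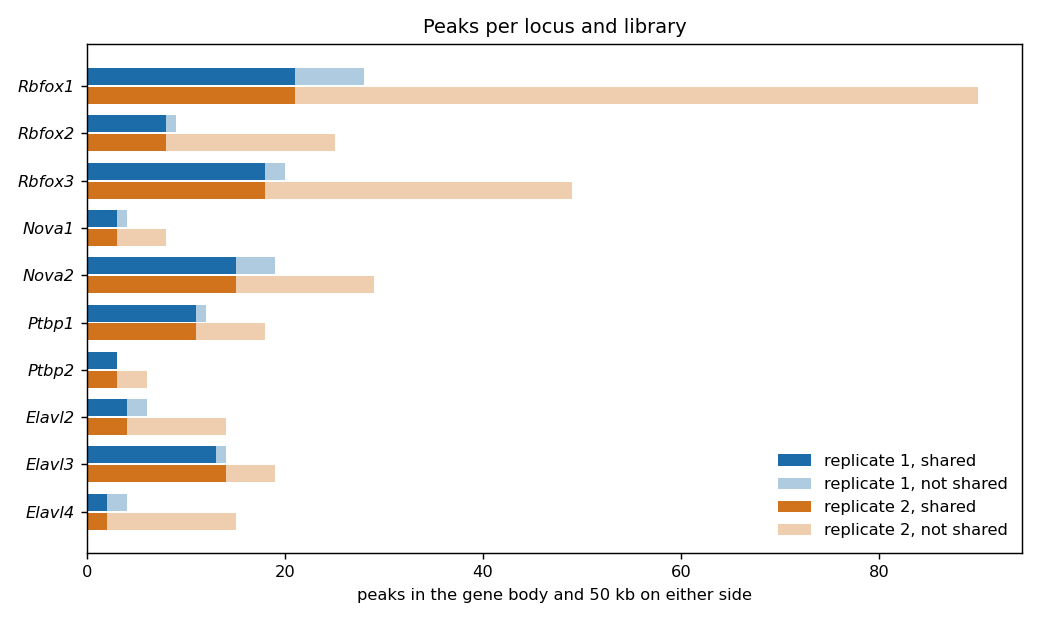
Number of peaks in the gene body and 50 kb on either side of each gene, with the replicate 1 bar above the replicate 2 bar and the dark part of each bar for peaks that overlap a peak of the other library. The long Rbfox1 locus has the most unshared peaks of replicate 2, with 21 of its 90 peaks shared.

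Peaks were then sorted by place. Introns of the genes themselves held 40 peaks in replicate 1, of which 32 were shared, and 145 in replicate 2, of which 31 were shared (80% and 21.4%). Over all introns of protein-coding genes 63.8% of replicate 1 peaks and 22.3% of replicate 2 peaks were shared. At the genes' own coding starts 22 of 25 and 25 of 44 peaks were shared, and at coding starts of neighbouring genes 15 of 16 and 15 of 21, against 88.4% and 70.8% of the peaks at all coding starts. Unshared peaks were the weaker ones, with a median value of 0.671 in replicate 1 and 0.552 in replicate 2, against 1.15 and 1.84 for shared peaks.

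The 98 shared peaks of replicate 1 were set beside their strongest partner in replicate 2. Replicate 2 had the higher value at 79 of them (80.6%), against 80.6% of all 43970 shared peaks, and the median log2 difference was -0.58, beside -0.63 over all shared peaks. Own coding starts were higher in replicate 2 at 21 of 22 (median -0.90), against 88.1% of shared peaks at all coding starts (median -0.87). Own introns were higher in replicate 2 at 23 of 32 (median -0.28), against 75.8% of shared peaks in all introns (median -0.48). Both shared peaks inside exons, the last exon of Rbfox3 with 1.97 and 1.92 and a coding exon of Nova2 with 0.800 and 0.605, were higher in replicate 1, while 72.4% of all shared exon peaks were higher in replicate 2. On the log scale Pearson's r between the libraries was 0.84 and Spearman's rho 0.78 over the 98 peaks, given as a description because the peaks share 2 libraries and lie in 10 loci.

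**Figure D4:**
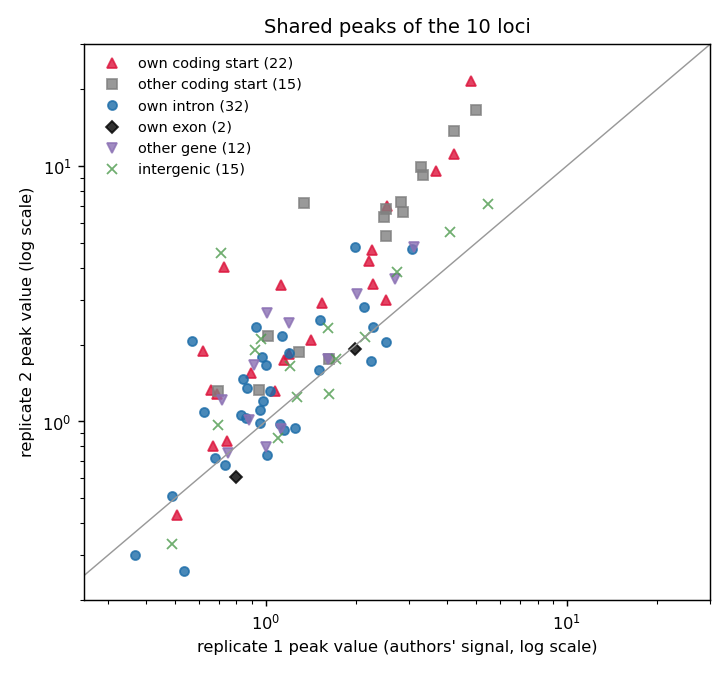
Values (authors' signal, log scales) of the 98 shared peaks in replicate 1 on the horizontal and replicate 2 on the vertical axis, marked by place, with a line at equality. Coding starts, the triangles and squares, lie above the line at all but 1 peak, and intron peaks, the circles, lie on both sides of it.

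Rbfox1 carried 26 peaks in its body in replicate 1 and 82 in replicate 2, where 56 genes of like length (within 1.5-fold) had medians of 12.5 and 45.5, and 89.3% of them had fewer in each library. These are counts, not scaled for differences in length within that range. Per 100 kb of body Rbfox1 had 1.70 and 5.37 peaks, against 2.58 and 6.94 over the 10 genes together. Its strongest shared peaks away from starts lay 133 kb in at 1.99 and 4.81, 46.6 kb in at 2.13 and 2.79 and 595 kb in at 1.52 and 2.49. The strongest peak of replicate 2 without a partner was 1.47, at 7100041 to 7100240 in an intron, and replicate 1 had at most 0.774 without a partner, at the start 464 kb in, where replicate 2 had an interval under the false discovery rate of 0.05. That peak of 0.774 lies inside another replicate 1 peak, of 0.897, which does have a partner.

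Rbfox3 had 15 body peaks in replicate 1 and 41 in replicate 2, against medians of 6 and 21 over 475 genes of like length. A cluster of 6 shared peaks stood in 6.06 kb of an intron (118738981 to 118745043), 167 to 173 kb into the gene, with values of 0.858 to 3.06 in replicate 1 and 0.925 to 4.74 in replicate 2. It had the most peaks of any run of shared peaks outside coding starts in the 10 loci when peaks were chained at up to 3000 bp. Its strongest peak is the Rbfox3 site shown above, and the next strongest sites of the gene lay 404 kb in at 2.50 and 2.06 and 338 kb in at 2.28 and 2.33. Each library also had intron peaks of its own, at most 1.09 in replicate 1 and 1.76 in replicate 2.

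Rbfox2 had 5 body peaks in replicate 1 and 18 in replicate 2, against medians of 4 and 13 over 984 genes of like length. Its strongest sites away from starts lay upstream, 29.6 kb away at 2.74 and 3.85 and 36.6 kb away at 1.21 and 1.65, and within the gene 49.4 kb in at 1.03 and 1.31. A start peak of 1.51 in replicate 1 had no partner, although replicate 2 had an interval under the false discovery rate of 0.05 in it, and an upstream peak of 1.42 in replicate 2 had none in replicate 1.

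Nova1 stood at the other end, with 2 and 4 body peaks against medians of 3 and 7 over 1969 genes of like length. Nova2 had 6 and 5 against medians of 2 and 3, and 4 of its 6 in replicate 1 lay in exons, of which 3 were wholly coding and 1 was shared. The strongest of the exon peaks, 1.04 at 18957539 to 18957800, had no partner in replicate 2. The strongest unshared peak of all, 2.38 in replicate 2 with 6 footprints, lay at 19002821 to 19003100, 77.1 kb from the 5′ end of Nova2 and beyond its 3′ end, and replicate 1 had no interval under the false discovery rate of 0.05 there. Close by, at 19003901 to 19004120, the coding start of another gene, Irf2bp1, had a shared peak of 2.51 and 5.30. The Nova2 intron held a shared peak of 1.14 and 2.17, 24.1 kb in.

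The short Ptbp1 had 3 and 7 body peaks against a median of 1 in each library over 4475 genes of like length, whereas Ptbp2 had 2 and 4 and equal medians. The Ptbp1 site shown above, 38.5 kb from the 5′ end, had 2.14 in replicate 1 and 2.14 in replicate 2, and a site 42.0 kb upstream in Palm, a gene for a membrane-bound protein of neurons, had 2.68 and 3.62. An intron of Ptbp2 1.85 kb in had 0.961 and 0.985, and a site 72.2 kb from its 5′ end had 0.490 and 0.333. The replicate 2 peak of that intron site reaches within 500 bp of a Ptbp2 coding start.

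Elavl2 had 5 and 13 body peaks against medians of 3 and 9, Elavl3 4 and 5 against 2 and 3, and Elavl4 3 and 12 against 3 and 9. Elavl2 had a single shared peak whose replicate 1 interval lay away from starts, 29.5 kb in, of 0.826 and 1.06. Its replicate 2 partner reaches within 500 bp of the start group 28.7 kb in. Upstream of Elavl3 a run of 3 shared peaks spanned 3.75 kb (22054581 to 22058326) with 1.00 to 1.20 in replicate 1 and 0.792 to 2.65 in replicate 2. These peaks lie within another annotated gene, Gm49318, and the farthest upstream also lies within Zfp653. In the Elavl4 body no peak away from starts was shared, and 1.43, at 110285461 to 110285620, was the highest of those in replicate 2.

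The flanks of the compact loci hold starts of other genes, whose peaks count among the totals above and cannot be assigned to either gene from these data. Beside Nova2 the start of Mypop had 4.98 in replicate 1 and 16.5 in replicate 2, beside Elavl3 the shared start of Prkcsh and Ccdc151 had 4.23 and 13.7, beside Rbfox3 the start of Engase had 2.85 and 6.60, and beside Ptbp1 the start of Med16 had 2.47 and 6.32. Next to Elavl4 the start of Agbl4 had 1.02 and 2.16.

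**Figure D5:**
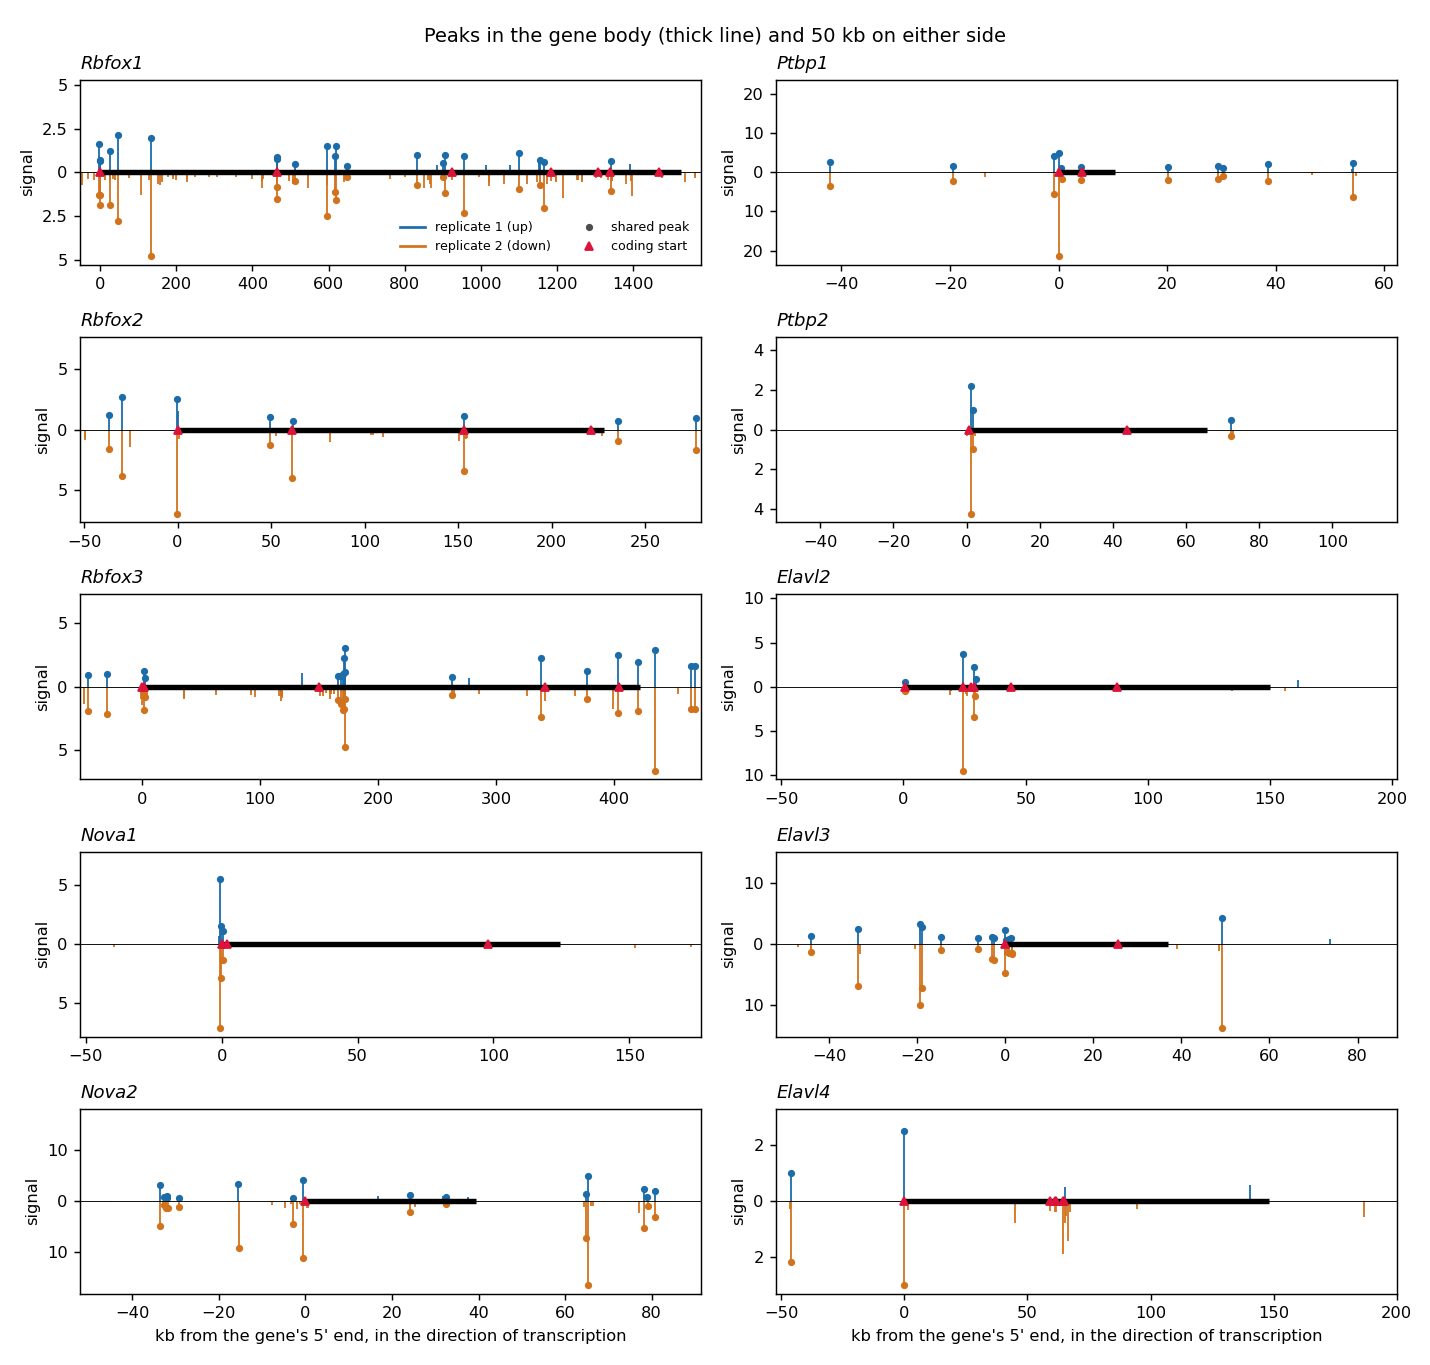
Peaks of each locus by distance in kb from the 5′ end of the gene in the direction of transcription, with replicate 1 values (authors' signal) drawn upward and replicate 2 values downward, dots on shared peaks, triangles at coding start groups and a thick line for the gene body. Rbfox1 and Rbfox3 show many short replicate 2 lines without dots in their introns, and Nova1 shows peaks almost only at its 5′ end.

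Footprints followed the peaks in number. The 10 loci held 264 footprints in replicate 1 and 617 in replicate 2, of 7 to 46 bp, and 164 (62.1%) and 158 (25.6%) overlapped a footprint of the other library, against 56.3% and 23.3% of all footprints. Of the 264 and 617 footprints, 254 and 557 lay in a peak. Over all peaks 75.4% and 76.2% held a footprint, and of the peaks at the 10 genes' own starts 22 of 25 and 33 of 44 did. Only 7 footprints had identical ends in both libraries. At the coding starts themselves 57 and 132 footprints were found, with 12 and 24 at Rbfox2, 7 and 17 at Ptbp1, 9 and 18 at Elavl2 and 6 and 24 at Elavl4. Rbfox3 had none at its starts in replicate 1 and 13 in replicate 2, and Elavl3 was the only gene with more at its starts in replicate 1, 6 against 4.

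Consensus letters were searched on both strands in the 150 bp at the centre of each peak, as a description of the sequence and not of bound proteins. A 12-letter consensus of the insulator protein CTCF was found in 3 peaks of the 10 loci in each library, 2.52% and 1.10%, against 1.50% and 0.925% of all peaks. The Rbfox1 and Rbfox3 sites shown above hold 2 of them, written GCCCCCTCGTGG on the printed strand of Rbfox1 and CCACCAGGGGGC on that of Rbfox3, each inside bases that both libraries protected. A 7-letter core of this sequence, AGGGGGC, contained in the longer one and chosen after the sequences had been read, stood in 21 of 119 peaks of replicate 1 (17.6%) and in 10.3% of those of replicate 2, against 10.1% and 7.35% of all peaks. It lies in the shared capitals of the Rbfox1 site, both Rbfox2 sites, the Rbfox3 site and the Elavl4 start. None of the stretches that were read but not shown holds it in shared capitals. The sites shown therefore hold it more often than all the stretches read.

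The GC-box letters GGGCGG, bound by Sp proteins, were in 28.6% and 14.3% of the peaks of the 10 loci, against 23.2% and 14.3% of all peaks, and in 12 of 25 own-start peaks of replicate 1 and 14 of 44 of replicate 2. CCAAT letters, bound by NFY, were in 18.5% and 20.1%, against 18.7% and 19.9%. A CCAAT lies wholly in the protected bases of the Elavl2 start, and the Nova1 site has one, read as ATTGG, partly inside. The 15-letter consensus of REST, the repressor of neuronal genes outside neurons, was in no peak of replicate 1 and in 1 intron peak of replicate 2 (0.366%), against 0.104% and 0.0723% of all peaks. E-box letters CAGATG, of the kind read by proneural factors, were in 13.4% and 19.4%, against 12.04% and 16.3%, and the NFI letters TTGGCA in 7.56% and 12.1%, against 10.4% and 16.7%.

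Set beside 41 other RNA-binding genes, chosen with earlier results of these data known, the neuronal regulators had lower median start values than the general splicing factors. Of the 41 genes 37 had a start peak in both libraries, 3 in replicate 2 alone and 1 in neither. Where a peak was called, their median start value was 2.75 in replicate 1 and 6.70 in replicate 2. The median start value of the 10 genes was 2.38 in replicate 1 and 5.84 in replicate 2, and that of 11 general hnRNP and SR proteins, the constitutive splicing machinery's partners, was 4.30 and 10.9. Those 11 were all open in both libraries, and Hnrnpc, which coats nascent transcripts, was highest at 8.41 and 16.5 while Srsf10, an SR-like regulator, was lowest by rank at 2.75 and 10.7. Of the 10 genes Ptbp1 passed both medians of these 11 genes, Nova2 passed that of replicate 2 and the other 8 passed neither. With a 1000 bp window, added after the values were seen, Nova1 had 5.46 in replicate 1, above the median of 4.30 that the 11 genes had with 500 bp. No test was made of this difference.

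Relatives of the 10 genes were open as well. Elavl1, the ubiquitous Hu gene, had 4.34 in replicate 1 and 9.18 in replicate 2, above Elavl3 and Elavl4 in both libraries and above Elavl2 in replicate 1 alone. The PTB family and partners were open in 4 of 4, from Raver1 at 3.80 and 10.3 to Raver2, a PTB-binding cofactor like it, at 0.839 and 0.732. The SR-related genes were open in 3 of 3, with Srrm2, a general component of the spliceosome, at 3.09 and 11.3 and Srrm4, which promotes neuronal microexons, at 1.54 and 4.62.

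STAR genes were open in 4 of 4, from Khdrbs1 (Sam68) at 3.88 and 11.9 to Khdrbs3 at 0.877 and 1.88, and CELF genes in 6 of 6, from Celf6 at 2.88 and 8.53 to Celf2 at 0.897 and 1.20. In the Musashi and FMRP families 5 of 5 were open, with Fxr2 at 6.64 and 21.3, the highest of the 41 by mean, and Msi1, a marker of neural progenitors, at 0.593 and 0.785. Of the MBNL genes 2 of 3 were open in both libraries, with Mbnl2 at 2.71 and 6.19, and Mbnl3 had a peak of 0.273 in replicate 2 alone. The non-neural splicing factors were open in both libraries in 1 of 4, Rbm24 of muscle at 0.974 and 0.878. Esrp2, an epithelial splicing regulator, had no start peak in either library.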

How the data were processed

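DNase-seq was measured in 2 libraries of cerebellum of male mice aged 4 days, 1 group, with 3 males named per library in the labels. Replicate 1 was sequenced on NovaSeq and HiSeq instruments, per the labels. The authors deposited 2 peak lists per library with a signal column, scaled by a factor and called at thresholds that no header states. They also deposited intervals with a q-value (false discovery rate) of the cut rate under 0.05, and footprints, of which only the positions were used because their value column holds nothing but 0.01. All files are on mm10, per the labels. The sources used here do not name the aligner or the callers, the depth in reads is unknown, and no interval was computed.

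Coding starts came from GENCODE release M21 on GRCm38, and 3800 of 3800 RefSeq promoter sequences matched the genome at their coordinates. A start was open when a peak of the less strict list lay within 500 bp, its value came from the strongest peak there, and an overlap of 1 bp or more made peaks or footprints shared. Sequence matches were counted in 150 bp windows and in footprints extended by 5 bp. The overlap code was tested on simulated intervals of known overlap, a check of the code and not of the counts against chance. Work was done in Python 3.11.15 with pandas 2.3.3, numpy 2.4.6, scipy 1.17.1 and matplotlib 3.10.9.

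The 10 genes, the comparison and marker lists and the alternatives were chosen with earlier results of these data known. Named sites are every start group, up to 3 of the strongest shared peaks of each gene away from coding starts by mean percentile rank, and the strongest peak that either library lacks, of which some are left out. Of the other RNA-binding genes, the highest and lowest of each class by mean rank and every gene without a start peak are named. Other sites were chosen after their values were seen. Alternatives were the stricter list, equal numbers of peaks, other windows and flanks, complete transcripts, an overlap of 50% of each peak and leaving out each library. DNase-seq carries no strand, so genes that overlap a site cannot be told apart.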

Additional observations from a re-analysis of the deposited data

How the results depend on the processing

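The 10 genes with a start peak in both libraries became 9 with a 200 bp window and with the 5′-most start alone, and the 39 open starts ran from 30 to 45 over the other settings. Leaving out each library in turn gave 10 to 10 genes and 39 to 48 starts. The peak totals depend on the list and the flank. Replicate 1 had 74 peaks with the stricter list, 71 without the flanks and 206 with 100 kb flanks in place of 119, and replicate 2 had 160 with the stricter list and 167 with peak lists made equally long in place of 273. The shared percent of replicate 1 was 91.9 with the stricter list, 72.3 with 100 kb flanks and 69.7 when 50% of each peak had to overlap, in place of 82.4. That of replicate 2 was 55.7 with equally long lists, 28.8 without the flanks and 30.4 with 50% overlap, in place of 36.3. Footprints numbered 122 in replicate 1 and 355 in replicate 2 without the flanks. The 7-letter core in place of the CTCF sequence raised the share of replicate 1 peaks to 17.6% in place of 2.52%, because the core is contained in the longer sequence. Smaller regions and shorter lists hold fewer peaks by construction, and the cause of the other changes, those of the shared percents among them, was not tested. A 1000 bp window, added after the values were seen, gave a Rbfox3 mean of 2.28 in place of 1.52. No paired analysis was possible because the 2 libraries form 1 group. With 2 libraries an SD rests on a single difference, and whether weak peaks missing from replicate 1 lay below its depth, which is unknown, was not tested.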
